A study of Mus musculus with 2 samples.

Results

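The Hox genes, which code for the transcription factors that give cells along the head-to-tail axis their positional identity, were examined in the interscapular brown adipose tissue (iBAT) of wild-type and Ucp1-KO mice. The members were every gene whose symbol is Hox followed by a cluster letter from a to d and a number, which picked 39 of the 27179 genes listed in both count tables, 11 in cluster A, 10 in cluster B, 9 in cluster C and 9 in cluster D. The animals were untreated C57BL/6N mice of 20 days, either wild-type or labelled as knockout of Ucp1, the gene of the mitochondrial uncoupling protein that lets brown fat release heat. Each genotype was represented by 1 directional, poly-A enriched library made from the iBAT of 3 pooled animals. The libraries held 52950913 (wild-type) and 53216727 (Ucp1-KO) counts. With 1 library per genotype there was no replicate and no test, so a difference is one between these pools, and each interval (95%) covers counting error only.

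In mammals the Hox genes lie in 4 clusters, and genes at the same place in different clusters form a paralogous group, numbered from 1 to 13. Low groups are active from the hindbrain and neck downwards, high groups only further towards the tail, in the order in which the genes lie along each chromosome. Fat cells and their precursors keep such a code after birth, and it differs between depots. Interscapular fat arises largely from paraxial mesoderm at the level of the neck and upper trunk.

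The labels were checked first. Ucp1 had 366473 counts in wild-type tissue and 37853 in the library labelled Ucp1-KO, 12.7% of the wild-type level after normalisation. Ucp1 reads were thus lower in the library labelled as knockout but not absent, and what the allele leaves of the transcript is not given in the sources used here. All 15 markers of brown adipocytes, Ucp1 among them, were present in both libraries. Fabp4, a fatty acid carrier, had 387360 and 350385 counts and Cidea, a lipid droplet protein, 89838 and 102812. The design text gives male animals for both genotypes, yet 4 genes of the Y chromosome were listed at 0 for wild-type and summed to 99.7 CPM (counts scaled to a common library total) in Ucp1-KO, so sex and genotype cannot be told apart here. Skeletal muscle had the largest median log2 ratio in size among the lists of cell type markers, with a summed level of 6941 CPM in wild-type and 882 CPM in Ucp1-KO. In bulk tissue, fewer cells of a type and less RNA per cell cannot be told apart.

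Hox proteins bind DNA through the homeodomain, whose last helix reads the bases of the target site. The stretch of 60 bases that codes for this end of the homeodomain is shown for Hoxa5, the member of the highest level, for 3 other members of high level, Hoxa4, Hoxc6 and Hoxd8, and for Hoxd10, the first gene past the boundary described below, because reads of near-identical paralogues could be mixed. All lie in a coding exon (GRCm39). Capitals mark the bases that differ from Hoxa5.
Hoxa5, chr6:52179612-52179671, minus strand: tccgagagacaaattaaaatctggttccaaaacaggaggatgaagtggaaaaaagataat
Hoxa4, chr6:52167463-52167522, minus strand: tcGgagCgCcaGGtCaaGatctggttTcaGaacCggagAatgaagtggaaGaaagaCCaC
Hoxc6, chr15:102919306-102919365, plus strand: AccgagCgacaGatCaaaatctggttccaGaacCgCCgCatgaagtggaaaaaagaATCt
Hoxd8, chr2:74536989-74537048, plus strand: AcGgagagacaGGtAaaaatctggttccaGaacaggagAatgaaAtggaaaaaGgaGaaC
Hoxd10, chr2:74524605-74524664, plus strand: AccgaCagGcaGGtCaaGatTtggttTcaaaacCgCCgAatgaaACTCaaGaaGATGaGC

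Hoxa5 shared 49 of these 60 bases with Hoxd8, 48 with Hoxc6, 45 with Hoxa4 and 36 with Hoxd10. Over the whole homeobox of 180 bases, the 42 pairs of the same paralogous group were identical at 67.2% to 93.9% of positions (median 80.6%), and the 699 pairs of different groups at 46.1% to 88.9% (median 60.6%). Shared runs of bases were sought only in the canonical (main annotated) transcript of each of the 39 members. In these, 2 pairs shared a run of 50 identical bases, Hoxa6 with Hoxb4 and Hoxb9 with Hoxc9, and 0 pairs a run of 100. Other annotated exons were not compared in this way, and some members overlap on the same strand. Hoxc5 shares 5.37% of its exon bases with other genes, mainly Hoxc10, and Hoxc10 8.11%, mainly Hoxc5.

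The Hox code of the iBAT covered the groups up to 9 and stopped there in both pools. Of the 39 members, 23 (59.0%) had over 6 counts in both libraries, beside 54.6% of all genes listed, and 1 more, Hoxa9, had over 6 in wild-type alone. A listed 0 allows up to 3 read pairs, or 6 counts, which is 0.113 CPM, and 15 members stayed at or under that limit in both libraries, 13 of them at 0 in both. The 12 members of groups 10 to 13 had 0 counts in all for wild-type and 2 for Ucp1-KO, while 23 of the 27 members of groups 1 to 9 were over the limit in both. The members of groups 1 to 9 at or under it were Hoxb1, Hoxc9 and Hoxd1, and Hoxa9 in Ucp1-KO.

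**Figure D1:**
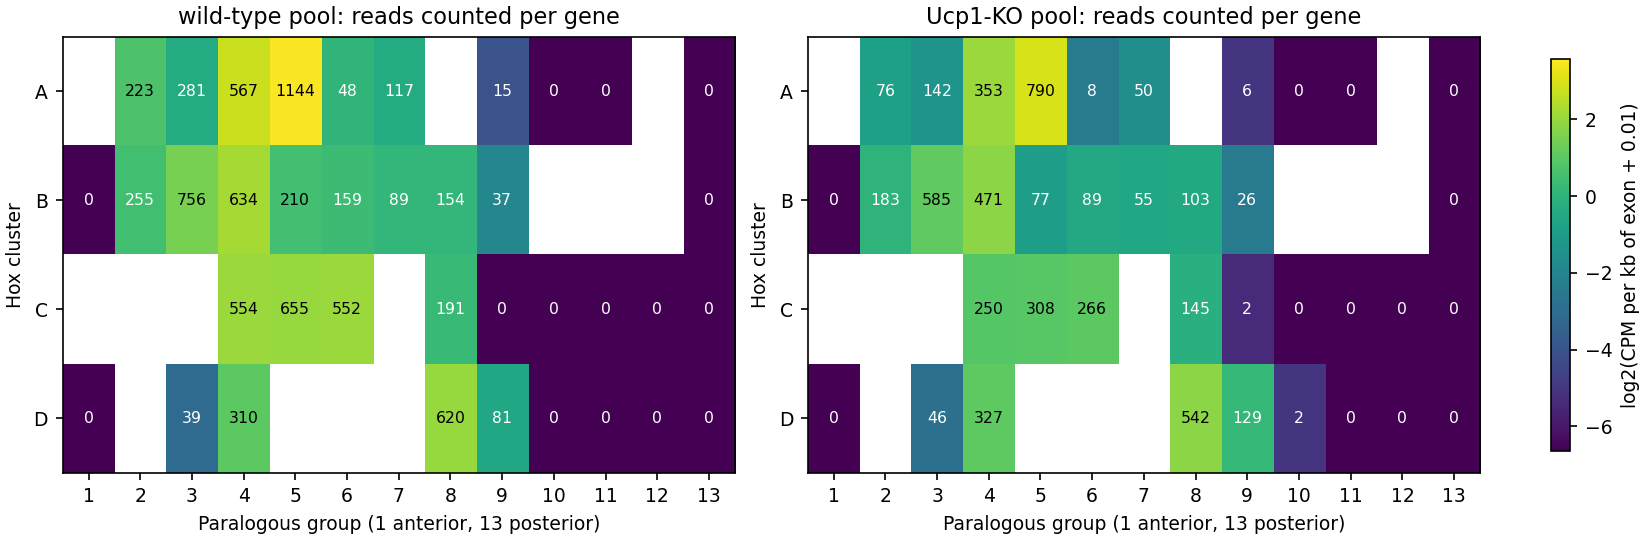
Grid of 38 Hox genes in the wild-type (left) and the Ucp1-KO pool (right), with the paralogous group on the x axis, the cluster on the y axis, the deposited count printed in each cell and the level per exon length, log2(CPM per kb + 0.01), as the colour. White cells are places with no such gene or one not shown. The filled block ends at group 9 in both pools, and the brightest cell in each is Hoxa5, with 1144 and 790 counts.

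The boundary was met at a different step in each cluster. In cluster A the counts in wild-type and Ucp1-KO were 117 and 50 for Hoxa7, 15 and 6 for Hoxa9, and 0 and 0 for Hoxa10. In cluster B, Hoxb9 still had 37 and 26 counts, and Hoxb13, the next gene of the cluster, was listed at 0 in both. In cluster C the drop came earlier, since Hoxc8 had 191 and 145 counts and Hoxc9, its neighbour, 0 and 2. Hoxc8 is known to hold back brown adipocyte differentiation in fat precursors, and Hoxc9 and Hoxc10, the latter at 0 in both, are known as markers of inguinal white fat. In cluster D the step lay between Hoxd9, with 81 and 129 counts, and Hoxd10, with 0 and 2.

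Around that last step the sequence just before the annotated gene start is shown, because the genes on its sides are neighbours on the chromosome. Sequences are those of RefSeq (table of GRCm38.p6), placed in GRCm39 by an exact match, and capitals mark each CG.
Hoxd9, chr2:74527858-74528007, plus strand: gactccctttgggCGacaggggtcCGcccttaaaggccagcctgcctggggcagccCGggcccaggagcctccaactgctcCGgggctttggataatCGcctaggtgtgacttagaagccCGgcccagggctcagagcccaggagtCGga
Hoxd10, chr2:74522080-74522229, plus strand: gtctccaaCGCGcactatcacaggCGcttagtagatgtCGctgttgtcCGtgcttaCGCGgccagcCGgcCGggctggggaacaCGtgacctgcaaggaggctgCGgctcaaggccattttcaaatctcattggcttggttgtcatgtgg

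Hoxd9 had 7 CG in these 150 bases and Hoxd10 11, and their whole RefSeq promoters of 300 bases held 20 and 22. RefSeq promoters (300 bases around the start) matched 22 Hox genes with 24 promoters, which held a median of 14.5 CG beside 7 over all 32851 promoters of the table. The median was 13 CG for the 13 promoters of members over 6 counts in either library and 21 CG for the 11 promoters of members under the limit in both. Searched on both strands, the nuclear receptor half-site AGGTCA stood in 6 of those 13 and 1 of those 11 promoters, beside 16.3% of all promoters. The letters TTTATG, found in sites of Cdx proteins, stood in 4 and 1, beside 11.9%. TATAAA stood in 2 and 2, beside 13.6%, and TGATNNAT, the site of Pbx with Hox, in 2 and 2, beside 8.85%. No motif contains another. A match is a description of the letters and not a bound site.

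Divided by exon length, so that genes can be compared, Hoxa5 had the highest level of the family in both pools. Hoxa5 is known for patterning the lower neck, the upper trunk and the airways. It stood at 11.5 CPM per kb (10.6 to 12.5) for wild-type tissue and 7.91 (7.15 to 8.73) for Ucp1-KO, above 91.0% and 89.0% of the 25088 genes with an exon length. These include genes with no reads, since only 17534 and 17171 of all 27179 genes listed had a count. Hoxa4, its neighbour, came next in both, with 6.72 CPM per kb (5.96 to 7.55) and 4.16 (3.57 to 4.82).

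In wild-type the following places were held by Hoxb4 with 4.67 CPM per kb, Hoxc6 with 4.13, Hoxc4 with 4.07, Hoxc5 with 4.005 and Hoxd8 with 3.98, and the intervals of these neighbours overlapped. In Ucp1-KO the order after Hoxa4 was Hoxd8 with 3.46 and Hoxb4 with 3.45 CPM per kb, both with intervals that overlapped that of Hoxa4. Hoxb3 with 2.14, Hoxd4 with 2.07, Hoxc6 with 1.98, Hoxc5 with 1.87 and Hoxc4 with 1.83 CPM per kb followed and could not be ordered beyond counting error. Hoxa5 and Hoxa4 came first and second in both pools with each length tried, and the order after them depended on the length. The whole count of each gene was also divided by only the exon bases that it shares with no other. Hoxb3 then had 5.73 and 4.41 CPM per kb and Hoxd4 4.11 and 4.31, so that Hoxb3 came next after Hoxa4 in both. Any reads counted in shared bases raise such a value, so this place of Hoxb3 can come from the shorter length alone. Over all exon bases, Hoxb3 had 2.78 and Hoxd4 1.97 CPM per kb in wild-type. The other 15 members over the limit lay between 0.0508 (Hoxa9) and 1.64 CPM per kb (Hoxa2).

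Along the axis, groups 4 and 5 held the largest shares of the Hox RNA. Group 4 held 30.0% of the summed level per kb of wild-type tissue (28.5 to 31.6) and 31.2% of that of Ucp1-KO (29.2 to 33.1), and group 5 held 29.2% and 27.9%. The anterior groups 1 to 3 held 13.98% and 13.03%, groups 4 to 8 held 84.3% and 83.4%, and groups 9 to 13 held 1.73% and 3.62%. The share of groups 9 to 13 was higher in Ucp1-KO by 1.89 percentage points (1.01 to 2.77), and the shares of the other bands differed by less than counting error. That band rested on Hoxd9, since without it the shares were 0.538% and 0.655%, a difference within counting error (-0.261 to 0.493). Of the middle groups, group 6 held 11.1% in wild-type and 7.79% in Ucp1-KO, and group 8 held 10.8% and 13.8%. The mean group number weighted by level, an axial index, was 4.89 (4.83 to 4.94) for wild-type and 5.04 (4.97 to 5.11) for Ucp1-KO, a difference of 0.157 of a group (0.070 to 0.243), which was 0.085 (0.0029 to 0.167) without Hoxd9. Within single clusters the index of Ucp1-KO minus that of wild-type was 0.170 (0.035 to 0.304) in cluster C. In cluster A it was 0.099, in cluster B -0.138 and in cluster D -0.0012, each with an interval that held 0.

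**Figure D2:**
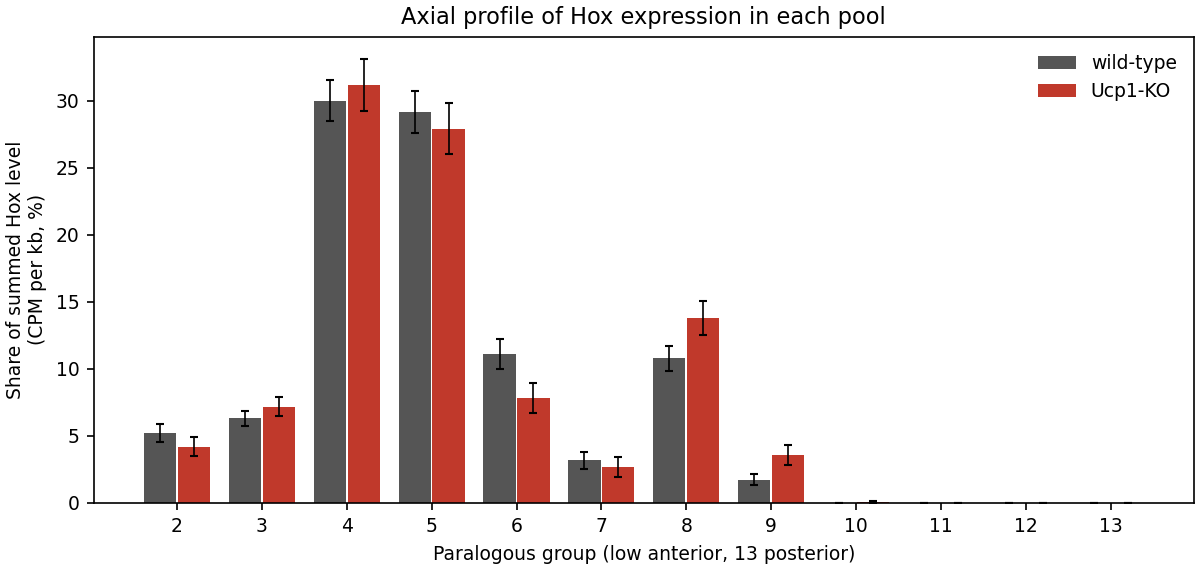
Share of the summed Hox level (CPM per kb, in percent, y axis) held by each paralogous group from 2 to 13 (x axis) in the wild-type and the Ucp1-KO pool, with 95% counting intervals as error bars. Both profiles peak at groups 4 and 5, near 30%, and are at or near 0 from group 10 on.

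The order of the members by level was much alike in the pools. Across the 24 members that averaged at least 10 normalised counts, the minimum used below, log2 levels per kb in the pools had a Pearson r of 0.934 and a Spearman rho of 0.853, and across all 39 members 0.984 and 0.952, which counts the 13 members at 0 in both. These are correlations across genes of a pair of libraries, the points share library and exon lengths, and genes are not independent replicates.

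The sign of the difference between genotypes followed the cluster. It is given as the log2 ratio of normalised counts, Ucp1-KO over wild-type, with median-of-ratios size factors. All 20 members of clusters A, B and C that passed the minimum had a log2 ratio below 0, and all 4 of cluster D had one above 0. Thus 20 of the 24 (83.3%) were below 0, beside 50.1% of the 15212 genes over the same minimum and 54.5% of the 8817 genes with a mean of 10 to 1000, the range that holds all 24. The median log2 ratio was -0.39 for the members and -0.0016 for all genes. Scaled to total counts, of which mitochondrially encoded genes took 22.4% in wild-type and 36.7% in Ucp1-KO, the log2 ratios of the 24 members were lower by 0.29 to 0.31, and the median of all genes was -0.31. With that scaling Hoxd8 turned to -0.20, while Hoxd3 (0.23), Hoxd4 (0.07) and Hoxd9 (0.66) stayed above 0.

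The size of the log2 ratio was near that of other genes of like abundance. Of the 24, 3 were at least 2-fold lower (12.5%), beside 9.55% of all genes over the minimum and 14.4% of those with a mean of 10 to 1000, and 0 were at least 2-fold higher, beside 7.42% and 10.9%. The interval lay wholly below 0 for 11 members (45.8%), beside 30.5% and 28.8%, and wholly above 0 for 2 (8.33%), beside 31.5% and 22.4%. In either direction, 3 members were past 2-fold (12.5%), beside 17.0% and 25.3%, and 13 had an interval without 0 (54.2%), beside 62.0% and 51.2%. The median size of the log2 ratio was 0.53, beside 0.51 for genes with a mean of 10 to 1000.

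**Figure D3:**
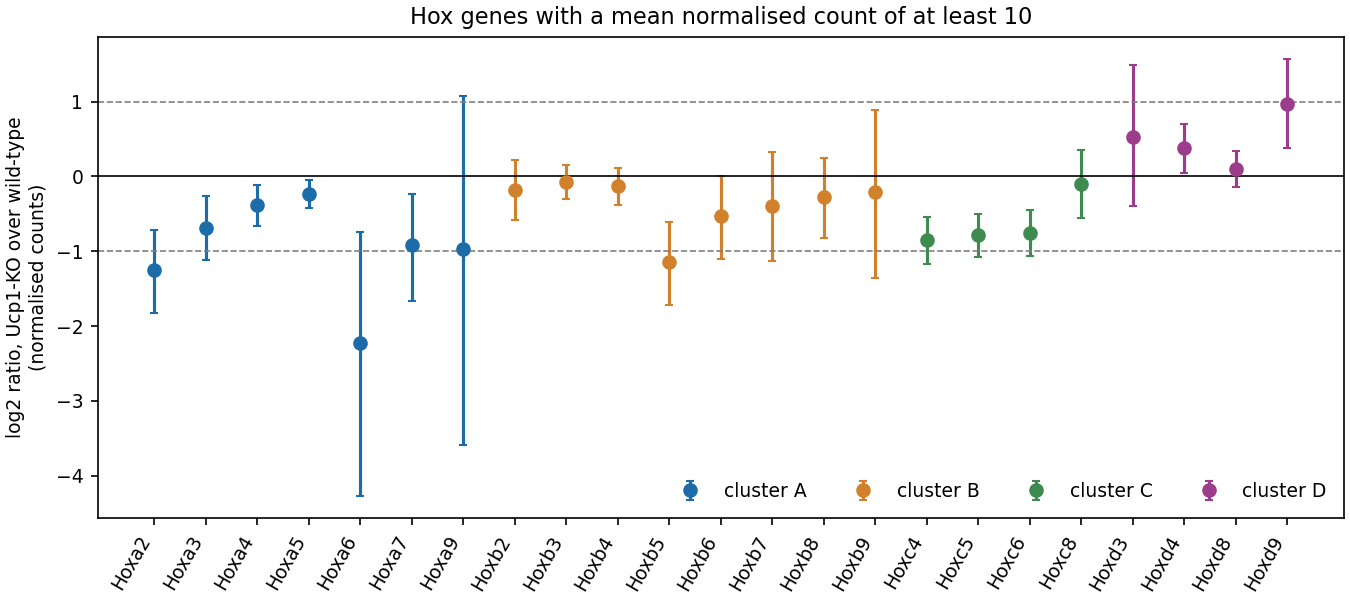
Log2 ratio of normalised counts, Ucp1-KO over wild-type (y axis), for 23 Hox genes over the minimum of 10 normalised counts (x axis), coloured by cluster, with 95% counting intervals and dashed lines at a 2-fold difference. The 19 genes shown of clusters A, B and C lie below 0 and the 4 of cluster D above it, of which Hoxd8 turns to -0.20 with total counts.

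Cluster A held 2 of the 3 members past 2-fold. Hoxa6 had 48 counts in the wild-type pool and 8 in the other, or -2.22 (-4.27 to -0.74). Hoxa2, the selector gene of the second pharyngeal arch, had 223 and 76 (-1.25, -1.82 to -0.71). Of these, Hoxa6 rests on few reads, as its interval shows.

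Hoxa7 had 117 and 50 counts (-0.92, -1.66 to -0.23). Hoxa3, needed for the thymus and the parathyroids, had 281 and 142 (-0.68, -1.12 to -0.26). The 2 highest members per kb were closer to equal, Hoxa4 with 567 and 353 counts (-0.38, -0.66 to -0.11) and Hoxa5 with 1144 and 790 (-0.23, -0.42 to -0.05). Hoxa9, at 15 and 6 counts, had an interval that reached from -3.59 to 1.07.

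In cluster B, 1 of 8 members had an interval without 0. That was Hoxb5, with 210 and 77 counts (-1.14, -1.72 to -0.60), past 2-fold. The other 7 members had log2 ratios between -0.54 and -0.07, each with an interval that held 0. Hoxb3 had 756 and 585 counts (-0.07, -0.30 to 0.15) and Hoxb4, known for its part in blood stem cells, 634 and 471 (-0.13, -0.38 to 0.12). Hoxb2 had 255 and 183, Hoxb6 159 and 89, Hoxb7 89 and 55, and Hoxb8 154 and 103.

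Cluster C held a run of 3 members with nearly the same ratio, and Hoxc8, nearer to 0, beyond them. Hoxc4 had 554 and 250 counts (-0.85, -1.16 to -0.54), Hoxc5 655 and 308 (-0.79, -1.07 to -0.51) and Hoxc6 552 and 266 (-0.75, -1.06 to -0.45). Their intervals overlapped each other. Hoxc8 stood at -0.10 (-0.56 to 0.36).

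In cluster D, Hoxd9 had the highest log2 ratio of the family, 0.97 (0.38 to 1.58), with 81 counts in the wild-type pool and 129 in Ucp1-KO. Hoxd4, with 310 and 327 counts, had 0.38 (0.05 to 0.70). The intervals of Hoxd8, with 620 and 542 counts (0.11, -0.13 to 0.35), and of Hoxd3, with 39 and 46 (0.53, -0.40 to 1.49), held 0. Hoxd3 and Hoxd4 share 38.5% and 52.0% of their annotated exon bases with other genes, so their counts are uncertain, as are those of Hoxb2, Hoxb3 and Hoxb6. Of these, Hoxb3 shares 51.5% with other genes, mainly the antisense gene Hoxb3os. Hoxd9, like Hoxa5, Hoxb4, Hoxc4 and Hoxc6, shares 0%.

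Summed over members, cluster A had a log2 ratio of -0.48 (-0.61 to -0.35), cluster B -0.23 (-0.36 to -0.10), cluster C -0.71 (-0.87 to -0.55) and cluster D 0.29 (0.12 to 0.47), which turned to -0.01 with total counts. Set against the other members in the same library, which does not depend on the scaling, cluster D was higher in Ucp1-KO by 0.74 on the log2 scale (0.55 to 0.93) and cluster C stood at -0.49 (-0.67 to -0.31). Cluster A stood at -0.22 (-0.38 to -0.07) and cluster B at 0.13 (-0.02 to 0.29). As a share of the summed level per kb, cluster D held 11.6% in wild-type and 18.4% in Ucp1-KO, and cluster C held 23.1% and 17.9%. Cluster A held 41.2% and 38.3%, the largest share in both pools, and cluster B 24.1% and 25.4%. Over all members the Hox RNA summed to 149 CPM in wild-type and 95.9 CPM in Ucp1-KO, with a log2 ratio of -0.32 (-0.40 to -0.25) after normalisation.

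Hox proteins bind DNA with partners of the TALE family, Pbx, Meis and Pknox. Of 9 such genes, 8 passed the minimum, with a median log2 ratio of -0.32, and 0 were 2-fold higher and 1 lower. That gene was Pknox2, with 164 and 47 counts (-1.49, -2.23 to -0.83). Pbx2, the most abundant, had 2247 and 2303 counts (0.34, 0.22 to 0.46), and Meis2 409 and 214 (-0.63, -0.99 to -0.29). For this and each later list, the shares to set beside the calls are 7.42% at least 2-fold higher and 9.55% lower, over all genes past the minimum.

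Genes that set Hox expression in the embryo, the Cdx factors, Gdf11 and the retinoic acid pathway, numbered 16, of which 11 passed with a median of -0.39, 3 at least 2-fold higher and 0 lower. The 3 were Aldh1a2, Gdf11 and Rxrg. Aldh1a2, which makes retinoic acid, had 15 and 34 counts (1.45, 0.17 to 2.94), and Gdf11, a signal for posterior identity, 29 and 66 (1.47, 0.56 to 2.49). Rxrg, a retinoid X receptor, had 1478 and 2525 counts (1.07, 0.94 to 1.21), and Rxra, another receptor of that kind, 3825 and 1776 (-0.81, -0.92 to -0.69). By interval, 4 of the 11 lay wholly above 0 and 6 wholly below, beside 31.5% and 30.5% of all genes past the minimum. Named after their values were seen, Aldh1a1 had 1124 and 459 counts (-0.99, -1.22 to -0.77) and Aldh1a3 107 and 150 (0.78, 0.26 to 1.32). Cdx1, Cdx2 and Cdx4 were listed at 0 in both libraries.

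The Polycomb complexes, which keep Hox genes silent, and the Trithorax complexes, which keep them active, had medians near 0 with members on both sides. All 27 Polycomb genes and all 12 Trithorax genes passed, with medians of -0.04 and 0.03, and 0 of either list were past 2-fold. By interval, 7 Polycomb genes lay wholly above 0 and 8 wholly below, and 4 and 2 Trithorax genes. Over all genes past the minimum these shares are 31.5% and 30.5%. The largest in size were Rbbp7 (3562 and 4784 counts, 0.73) and Cbx6 (1944 and 962 counts, -0.71) among the first and Kmt2d (7455 and 8712 counts, 0.52) among the second.

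Genes that flank the clusters on the chromosome differed in both directions. Of 14 listed neighbours, 12 passed, with a median of 0.05, 0 at least 2-fold higher and 1 lower, Skap1 beside cluster B (33 and 13 counts, -1.02, -2.62 to 0.34). On the side of Hoxd1, 60.7 kb away, Mtx2 had 5491 and 6402 counts (0.52, 0.45 to 0.60). On the side of Hoxd13, 88.9 kb away, Lnpk had 979 and 500 (-0.67, -0.90 to -0.45), so the neighbours of cluster D lay on opposite sides of 0. Evx1 and Evx2, homeobox genes at the posterior ends of clusters A and D, were at 0 in both. Of 10 noncoding RNAs of the clusters that were listed, 1 passed, Hoxd3os1 with 16 and 10 counts, and Hotair, which lies in cluster C, was at 0 in both.

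Of 48 other regulators of position, 23 passed the minimum, with a median of -0.09, 1 at least 2-fold higher and 4 lower. Prrx1, a factor of limb and facial mesenchyme, had 1005 and 3313 counts (2.02, 1.88 to 2.17). Irx5 had 45 and 8 counts (-2.13, -4.19 to -0.64), and Alx4 23 and 0, at least 3.11-fold lower in Ucp1-KO if its 0 is taken at the limit of 6 counts. Named after their values were seen, for their use as markers of brown fat, Zic1 had 373 and 368 counts (0.28, -0.02 to 0.58) and Lhx8 184 and 162 (0.12, -0.33 to 0.56), and Tcf21, a marker of white fat precursors, had 2 and 0. Tbx15, also named after its value was seen, was among the 4 lower, with 1045 and 416 counts (-1.03, -1.27 to -0.79). These picked genes do not stand for the list.

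Markers of several other cell types lay below 0, like the Hox genes of clusters A to C. Of 25 skeletal muscle genes, 23 were at least 2-fold lower in Ucp1-KO, with a median log2 ratio of -2.55, among them Acta1 (76457 and 5916 counts) and Myh4 (57748 and 6751). The 12 endothelial genes had a median of -0.85, 0 at least 2-fold higher and 2 lower, with a summed level of 3048 and 1485 CPM. The 10 of smooth muscle and pericytes had -0.69, 1 higher and 1 lower. The 13 genes of preadipocytes and fibroblasts had a median of -0.12 with 0 past 2-fold, and the 15 of brown adipocytes, 4 higher and 2 lower, had 0.25, which turned to -0.055 with total counts. The 2 lower include Ucp1 (-2.98), the gene by which the pools are labelled. The parts of these in the Hox ratios were not tested.

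**Figure D4:**
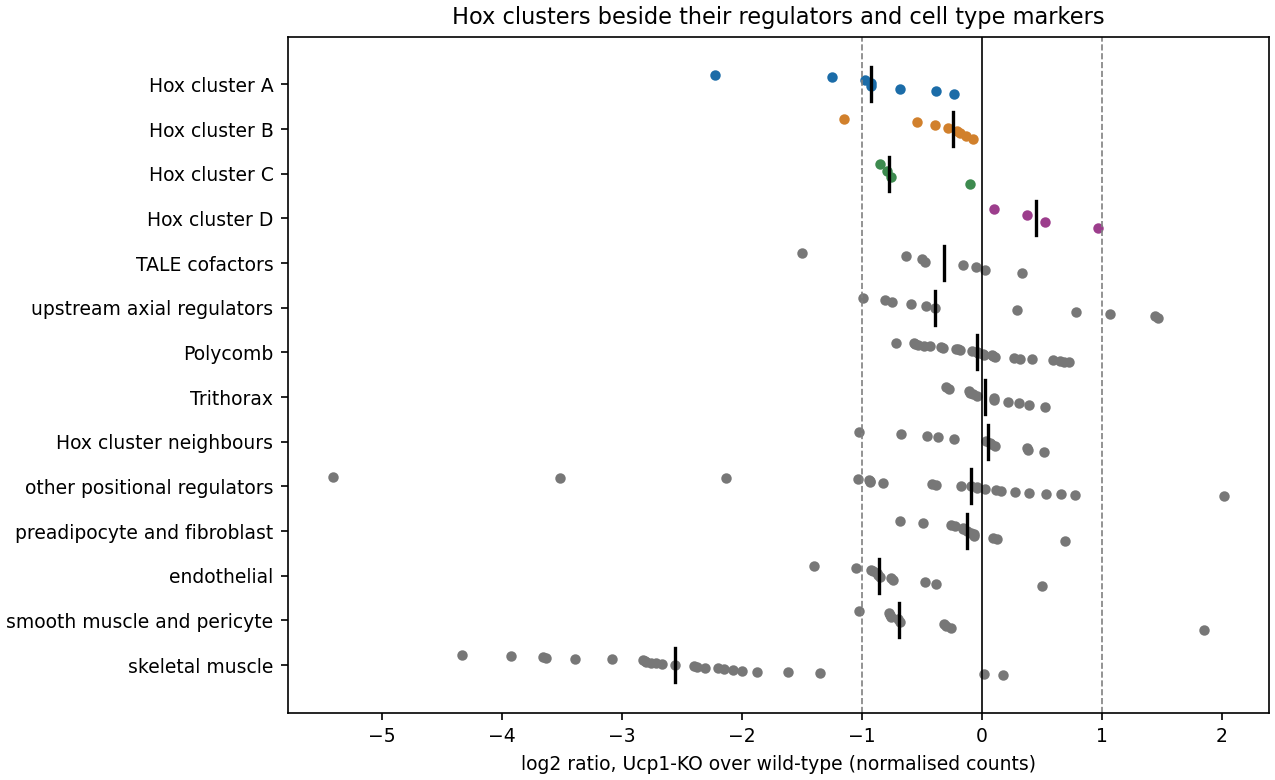
Log2 ratio of normalised counts, Ucp1-KO over wild-type (x axis), for each gene over the minimum of 10 normalised counts, by Hox cluster and by list (y axis), with the median of each as a black bar and dashed lines at a 2-fold difference. Cluster D is the Hox cluster to the right of 0 (with total counts Hoxd8 is at -0.20), skeletal muscle lies furthest to the left, and Alx4, the lowest point of the other positional regulators, is at 0 counts in Ucp1-KO, so that its place depends on the pseudocount.

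The remaining marker lists lay on both sides of 0. Of 12 macrophage genes, 3 were at least 2-fold higher and 0 lower (median 0.12), of 10 lymphocyte genes 2 and 2 (0.03), and of 8 Schwann cell and nerve genes 0 and 1 (-0.30). Cartilage and bone had 5 genes over the minimum, 2 higher and 1 lower (0.62), and a summed level of 3.78 and 4.17 CPM. Epidermis had 2, with 0 higher and 1 lower (-0.98), and Krt5 and Krt14, which define it, were at 0 in both. With total counts the medians were -0.19 for macrophages, -0.28 for lymphocytes, -0.60 for Schwann cells and nerve and -0.34 for cartilage and bone.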

How the data were processed

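The deposited values are whole-number counts per gene that the authors made with featureCounts, 1 table per library. Per the submitters' processing notes, reads were trimmed with Trim Galore and aligned to mm39 with HISAT2. The annotation, the strand setting and the treatment of multi-mapping reads are not given in the sources used here, so counts of antisense and overlapping genes are uncertain. Total counts were 52950913 and 53216727.

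Counts were scaled with median-of-ratios size factors, 1.11 and 0.901 (DESeq2 1.42.0 in R 4.3.3). The log2 ratio is log2((Ucp1-KO + 0.5)/(wild-type + 0.5)), for genes that averaged 10 or more normalised counts, and at least 2-fold was the size rule. Intervals are exact (Poisson, or conditional binomial for ratios) on counts divided by 2, because low counts were mostly even (70.7% and 73.4% of genes with 1 to 10 counts), as when both mates of a pair are counted. Intervals of sums per kb and of the axial index are approximations from the same read-pair variance. Exon lengths and positions are those of GENCODE vM39 on GRCm39, matched by symbol (97.0% of named genes). Scripts were tested on simulated data.

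The members and all lists were chosen with earlier results of these data known. All members entered the counts and sums, and the single values of a few genes are not reported here. Of each other list, up to 3 genes with the largest log2 ratio and up to 3 of the highest level could be named. Alternatives were total counts, edgeR 4.0.16 TMM factors, other pseudocounts, minimums, size rules and gene lengths. The canonical transcript length, levels under other lengths, total counts without mitochondrially encoded genes and values without Hoxd9 were added after the data had been seen. No protein sequences were used here, and homeobox DNA was compared instead.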

Additional observations from a re-analysis of the deposited data

How the results depend on the processing

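No paired analysis was possible because there was a single library of either genotype, so that none could be left out. Of 42 values of the main Hox results under the alternatives, 33 stayed within the interval of the main setting, as did 90 of 96 log2 ratios of single members. For the median log2 ratio that interval (-0.90 to 0.11) averages the limits of the middle members, Hoxa4 and Hoxb7. It is thus not a counting interval of the median, and it is wide enough to hold the -0.69 found with total counts. TMM factors, and total counts without mitochondrially encoded genes, left the number of members past 2-fold at 0 higher and 3 lower.

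Total counts lowered the log2 ratios of the 24 members by 0.29 to 0.31. With them 9 members were at least 2-fold lower and 0 higher (beside 15.2% and 4.8% of all genes), and the summed Hox log2 ratio was -0.63. Medians were -0.62 for TALE cofactors, -0.69 for upstream axial regulators, -0.35 for Polycomb, -0.28 for Trithorax, -0.25 for cluster neighbours and -0.055 for brown adipocytes. The medians of Trithorax, cluster neighbours and brown adipocytes thus turned from above to below 0. Those of macrophages, lymphocytes and cartilage and bone did so too. Without a minimum, 2 members were 2-fold higher, Hoxc9 and Hoxd10, each at 0 and 2 counts. A minimum of 50 left 2 members 2-fold lower. A log2 ratio of at least 1.5 left 1 member lower, and an interval wholly beyond 2-fold left 0.

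The axial index and the order of members below Hoxa4 depend on the length used. The index was 4.78 in wild-type and 4.92 in Ucp1-KO without division by length, 4.74 and 4.86 with unshared exon bases, and 4.79 and 4.88 with canonical transcripts, and Ucp1-KO stayed above wild-type in each. Without Hoxd9 it was 4.84 and 4.92. Without Hoxa5, the share of cluster D was higher in Ucp1-KO by 8.87 percentage points. On counts not halved, 12 members lay below and 2 above 0 beyond counting error. Depth limits members under 6 counts, where a ratio cannot be given.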
